A study of Mus musculus with 16 samples.

Results

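The 10 genes described here are the mouse genes that cut, carry and load peptides for major histocompatibility complex (MHC) class I molecules: Psmb8, Psmb9, Psmb10, Tap1, Tap2, Erap1, Tapbp, Tapbpl, B2m and Nlrc5. They were chosen by name, as the noncontrol probes of the arrays whose gene name equals one of these symbols. This gave 11 of 39429 probes, or 10 of 28631 named genes, with Nlrc5 on a pair of probes and each other gene on 1 probe. All 11 probes entered the test, 27433 probes in all did, and each of the 11 was well above background on 4 of 4 arrays in every group.

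The study sorted dendritic cell (DC) progenitors from bone marrow and asked how a mammary tumor elsewhere in the body changes them. RNA from each sorted sample was hybridized to a 1-color Agilent array, 16 arrays in all. The groups are MDPs (monocyte and DC progenitors) and CDPs (common DC progenitors, the later stage), each from tumor-free mice and from mice with PyMT-B6 tumors, with 4 samples in each group. All mice were female and C57/Bl6. The tumors came from the PyMT B6 line, derived from the MMTV-PyMT mammary cancer model in which the viral MMTV promoter drives the PyMT oncogene, were implanted in the mammary fat pad, and had grown to 1.5 cm in diameter. By the default of the methods, tumors were implanted at 7 to 8 weeks of age and mice were analyzed at 9 to 12 weeks. Controls carried no tumor, and no mouse in these groups is labeled with an engineered allele. Because 1 implanted line stands for breast cancer here, other tumors are not represented. By a figure legend of the study, each sample consisted of a pair of mice, so the 4 values of a group are pools rather than single animals.

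In the class I pathway, proteasomes cut cytosolic proteins into peptides, and immune cells exchange the catalytic subunits for the interferon-inducible Psmb8, Psmb9 and Psmb10. The Tap1-Tap2 transporter pumps peptides into the endoplasmic reticulum, Erap1 trims them, tapasin (Tapbp) and its relative Tapbpl edit which peptides stay bound, and B2m is the light chain of every finished class I molecule. Nlrc5 is the transactivator of class I genes, and DCs use the pathway to prime killer T cells.

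Probes of 5 of the 10 genes lie on chromosome 17 (mouse genome build mm9, as the array files print them): Tapbp at 34065963 to 34066022, Psmb9 at 34319174 to 34319233 on the minus strand, Tap1 at 34330854 to 34330913, Psmb8 at 34337771 to 34337830 and Tap2 at 34353116 to 34353175. Psmb9, Tap1, Psmb8 and Tap2 thus lie close together. The Erap1 probe lies on chromosome 13 at 74828969 to 74829028. Exon or UTR positions of the probes were not analyzed here. The oligos behind the results on Tap2 and Erap1, and the pair for Nlrc5 that differed, are shown by a 30-base stretch of each, 5′ to 3′. The capitals mark AATAAA, the letters of the common polyadenylation signal, found in the brighter Nlrc5 oligo.
Tap2: tcaggataaagattgggaccgttttggact
Erap1: atgcagagtgcattcagatctgtatcagaa
Nlrc5, brighter probe (chromosome 8, 97051105 to 97051164): ccatatcaaatgatcAATAAAcgcagatgt
Nlrc5, dimmer probe (chromosome 8, 97030566 to 97030624): tggctgaccaagtgtcacttggacctgcca

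RefSeq promoter windows (GRCm38.p6, 250 bases before to 50 after the start site) were found for 7 of the 10 genes. They were searched on both strands for GAAA-NN-GAAA, an interferon-stimulated response element bound by IRF factors, and for TTCNNNGAA, the gamma-activated sequence; both patterns can overlap other motifs. The first is in 1131 of all 32851 windows, or 3.44%, and in those of Erap1 and B2m. The second is in 8.3% of windows and in that of Psmb8. Both windows with the first motif are printed with the match in capitals. The Erap1 window is chr13:74639603-74639902 on the plus strand, with the match, read on the other strand, starting at -4 from the start site. The B2m window is chr2:122147437-122147736 on the plus strand, with the match at -139. The Tap1 and Psmb9 windows lie on opposite strands and share 275 bases, so these genes start from 1 stretch in opposite directions. A match is a run of letters and not a measured site.
Erap1: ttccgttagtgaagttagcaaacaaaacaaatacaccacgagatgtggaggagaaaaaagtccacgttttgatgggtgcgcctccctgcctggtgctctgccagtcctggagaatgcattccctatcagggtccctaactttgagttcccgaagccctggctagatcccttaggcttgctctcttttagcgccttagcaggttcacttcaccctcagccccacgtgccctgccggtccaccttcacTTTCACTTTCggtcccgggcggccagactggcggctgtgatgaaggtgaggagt
B2m: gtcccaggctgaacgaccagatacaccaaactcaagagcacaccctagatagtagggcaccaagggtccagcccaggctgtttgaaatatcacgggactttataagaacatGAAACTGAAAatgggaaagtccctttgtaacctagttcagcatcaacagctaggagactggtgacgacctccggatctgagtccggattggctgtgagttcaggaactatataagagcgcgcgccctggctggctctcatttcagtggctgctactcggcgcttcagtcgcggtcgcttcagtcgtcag

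Values below are log2 processed signals minus the array's 75th percentile, so 0 is that percentile. Levels are comparable between arrays for 1 probe, not between probes. A difference was called when limma's test had a Benjamini-Hochberg adjusted p (FDR) under 0.05 over all 27433 probes and a fold change above 1.5. The arrays came on 4 slides, and slide 1 held no CDP array from tumor-bearing mice while slide 4 held no MDP array from tumor-bearing mice. Across all tested probes, slide took a median of 48.5% of the variance between arrays, and it took 74.6% for Erap1, 58.6% for Tap2 and between 71.8% and 75.4% for the immunoproteasome subunits. Group took a median of 30.4%, with 52.7% for Erap1, 66.9% for Tap2 and between 16.3% and 28.6% for the immunoproteasome subunits. Each share was taken alone and groups are spread unevenly over slides, so the shares overlap. On slide 1 Erap1 averaged -1.31, against -2.96 to -2.50 on the other slides, and Tap2 averaged -0.69, against -1.79 to -1.53. Differences were therefore also fitted with slide as a block, and without the 4 arrays of slide 1.

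All 6 MDP and CDP markers, Flt3, Csf1r and Irf8 among them, were above background on some array of every group. Kit, the stem cell factor receptor, was lower in CDPs than in MDPs by 2.59 log2 units without tumor and 3.81 with tumor. The sort itself reads Kit, so this is no independent check. With tumor, 5 of the 6 markers had negative differences in CDPs, with 1 called lower, beside 1.79% of all probes. In MDPs 6 of 6 were negative and 0 called. Signals of marker lists named for other cells also differed between groups. The summed linear signal of 11 neutrophil markers, in units of the array's 75th percentile, was 26.3 to 38 in CDPs of tumor-free and 49.1 to 75.1 in CDPs of tumor-bearing mice. In MDPs it was 52.5 to 73.2 without and 55.3 to 92.9 with tumor. Mmp9 was above background on no array. Of the 10 tested neutrophil markers, 7 had positive and 3 negative tumor differences in CDPs, with 3 called higher, beside 1.79% of all probes. The summed signal of 7 monocyte and macrophage markers was 7.29 to 8.79 in MDPs and 15.1 to 26.1 in CDPs of tumor-free mice. That of 10 T and NK cell markers was lower in CDPs, 13.7 to 18 in MDPs and 2.45 to 3.42 in CDPs over both tumor states. Of its 7 tested markers, 6 had positive differences between CDPs and MDPs on average. In that average 1 was called higher and 1 lower, beside 11.7% of all probes. The gene called lower was Nkg7, a cytotoxic granule gene, at -2.95, and Gzmb was above background on no array. The summed signal of 7 conventional DC markers was 7.88 to 12.2 in CDPs without and 2.18 to 11.8 with tumor, and 4.49 to 9.15 and 1.83 to 6.78 in MDPs. Of the 6 tested, 4 had negative and 2 positive tumor differences in CDPs (median -1.67), and 6 were negative in MDPs (median -1.18). In each stage 1 was called lower, beside 1.79% of all probes called in CDPs and 0.062% in MDPs. The summed signal of 7 erythroid markers was 2.6 to 11 in CDPs without and 1.87 to 4.14 with tumor, and 2.51 to 6.03 and 2.3 to 2.81 in MDPs. The median tumor change over the 6 tested was -1.18 in CDPs and -1.02 in MDPs, with none called in either stage. Averaged over both stages 2 of 6 were called lower, beside 2.76% of all probes. The summed signal of 10 mammary tumor cell markers stayed between 0.752 and 1.91, with Cdh1 and Wap above background on no array. The part of these signals in the results on class I genes was not tested. In bulk samples, fewer cells of a type and less RNA per cell cannot be told apart.

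By RT-qPCR, the study reported lower Tap2 and Tapbp mRNA with tumor in sorted progenitors that included MDPs and CDPs. On the arrays, none of the 10 genes was called with tumor in CDPs or in MDPs. In CDPs, the 10 changes ran from -0.58 for Tap1 to 0.42 for Psmb10 on the log2 scale, 5 positive and 5 negative (2 and 8 under quantile normalization), with a median of -0.05 beside 0.08 over all tested probes. In MDPs, they ran from -0.20 for B2m to 0.28 for Erap1, with a median of 0.02 beside -0.11. By the same call, 1.79% of all probes changed in CDPs and 0.062% in MDPs. Before adjustment, 2 of 10 genes had p under 0.05 in CDPs (Tap1 and Tapbp, both lower with tumor), where 13.7% of all probes did, and 0 of 10 in MDPs, where 10.4% did. The groups did not overlap for 2 of 10 genes in CDPs, Tap2 (lower with tumor) and Psmb10 (higher), beside 11.1% of all probes (5.34% lower and 5.8% higher), and for 0 of 10 in MDPs, beside 5.22%. The change with tumor differed between CDPs and MDPs for none of the 10 genes, beside 0.0146% of all probes, and 1 of 10 (Tap1) had p under 0.05 there, beside 4.05%. Averaged over both stages, 0 of 10 were called with tumor, beside 2.76%, and 1 of 10 (Tapbp) had p under 0.05, beside 18.4%.

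**Figure D1:**
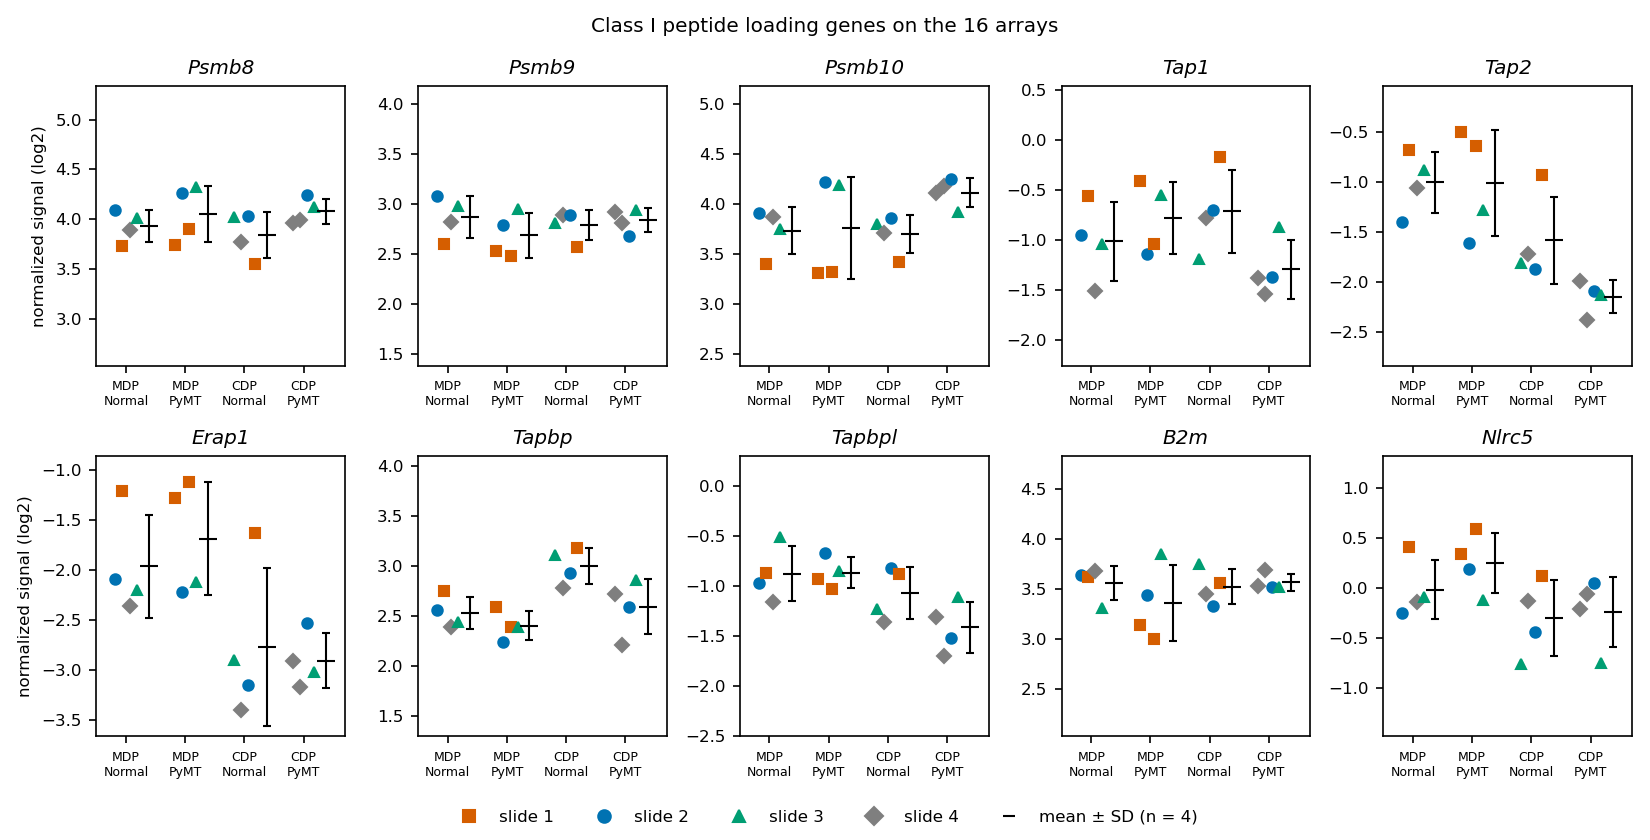
Normalized signal (log2, relative to the array's 75th percentile) of the 10 genes on each array, by group, with symbols for the slide and the mean ± SD of the 4 arrays beside them; Nlrc5 is shown by its brighter probe. Each panel spans the same 2.8 log2 units. Slide 1 arrays are the highest of each group they are in for Tap2 and Erap1, and CDPs of tumor-bearing mice lie below all MDPs of tumor-bearing mice for both genes.

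None of the immunoproteasome subunits passed the test with tumor. Psmb8, which takes the place of Psmb5, was 4.03, 3.78, 4.04 and 3.55 in CDPs of tumor-free mice and 3.96, 4.0, 4.24 and 4.12 in CDPs of tumor-bearing mice. These ranges overlapped, and the difference of 0.23 (95% interval -0.12 to 0.59, adjusted p 0.631) was not called. Psmb9, which takes the place of Psmb6, averaged 2.79 ± 0.15 (SD, n = 4) and 2.83 ± 0.12 in the same groups, a difference of 0.05 whose sign turned under quantile normalization, to -0.11. For Psmb10, which takes the place of Psmb7, CDPs of tumor-free mice had 3.8, 3.71, 3.86 and 3.42 and CDPs of tumor-bearing mice 4.11, 4.18, 4.24 and 3.92. Each of the 4 tumor-bearing samples was above each tumor-free sample, but the difference of 0.42 (SE 0.22) had an adjusted p of 0.46 and fell to 0.27 with slide as a block (adjusted p 0.185). Within slides 2, 3 and 4 it was 0.38, 0.12 and 0.43. In MDPs, the tumor-bearing samples had 3.31, 4.21, 3.31 and 4.19 for Psmb10, and the low pair were the slide 1 arrays. The difference with tumor in MDPs was 0.02, and -0.09, 0.30 and 0.44 within slides 1, 2 and 3.

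The constitutive subunits that these replace were measured beside them. In CDPs, Psmb5 differed by 0.50 with tumor (adjusted p 0.212), Psmb6 by 0.42 (adjusted p 0.522) and Psmb7 by 0.38 (adjusted p 0.382), and in MDPs by 0.24, 0.24 and 0.14. None was called, and the differences had the sign of those of Psmb8 and Psmb10.

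Both transporter subunits had negative differences with tumor in CDPs that did not pass the threshold. Tap1 was -1.19, -0.78, -0.70 and -0.17 in CDPs of tumor-free mice and -1.38, -1.54, -1.37 and -0.86 with tumor. One tumor-bearing sample, at -0.86, lay within the tumor-free range. The difference was -0.58 (SE 0.26, 95% interval -1.14 to -0.02), with p 0.0424 before and 0.338 after adjustment, and -0.41 with slide as a block. Within slides 2, 3 and 4 it was -0.67, 0.32 and -0.68, so the sign turned on slide 3. In MDPs Tap1 had -0.95, -0.56, -1.51 and -1.03 without and -0.40, -1.13, -1.04 and -0.54 with tumor, a difference of 0.23. The tumor changes of CDPs and MDPs thus differed by -0.81 log2 units for Tap1 (SE 0.37, adjusted p 0.749), which was not called.

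Tap2 gave -1.82, -1.73, -1.87 and -0.93 in CDPs of tumor-free mice and -1.99, -2.38, -2.09 and -2.13 in CDPs of tumor-bearing mice. All 4 tumor-bearing samples were below all 4 tumor-free samples, the highest of which, -0.93, was the slide 1 array. The difference of -0.56 (SE 0.27) had an adjusted p of 0.382. The exact two-sided permutation test of 4 samples against 4 gave 0.0286, the smallest p it allows. Any groups without overlap get this p, as Psmb10 and the dimmer Nlrc5 probe did in CDPs, so it adds nothing to the lack of overlap. With slide as a block the Tap2 difference was -0.39 (adjusted p 0.123), and within slides 2, 3 and 4 it was -0.22, -0.32 and -0.46. In MDPs, where the samples had -1.4, -0.68, -1.06 and -0.88 without and -0.50, -1.61, -0.64 and -1.28 with tumor, the difference was -0.01 (95% interval -0.58 to 0.57).

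**Figure D2:**
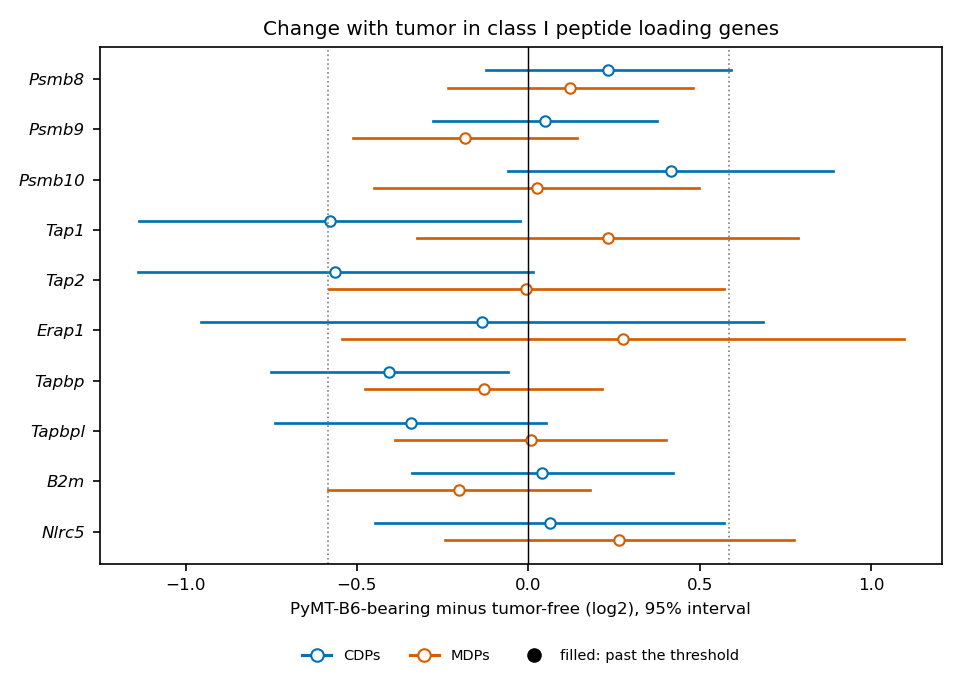
Change with tumor (PyMT-B6-bearing minus tumor-free, log2) of the 10 genes in CDPs and MDPs with 95% intervals; dotted lines mark a fold change of 1.5 and no point passed the threshold. In CDPs, Tap1 and Tap2 sit at -0.58 and -0.56 and Psmb10 at 0.42, while MDP changes lie between -0.20 and 0.28.

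The genes that trim and edit peptides did not pass the test with tumor either. Erap1 averaged -2.77 ± 0.79 in CDPs of tumor-free mice and -2.91 ± 0.27 with tumor, and its change of -0.14 became 0.21 with slide as a block. Tapbp gave 3.11, 2.78, 2.93 and 3.18 in CDPs of tumor-free and 2.72, 2.21, 2.59 and 2.86 in CDPs of tumor-bearing mice. The difference was -0.41 (SE 0.16, adjusted p 0.262), with 1 tumor-bearing sample in the tumor-free range, and within slides 2, 3 and 4 it was -0.34, -0.25 and -0.31. Tapbpl averaged -1.07 ± 0.26 and -1.42 ± 0.26, a difference of -0.34 (adjusted p 0.467). Within slides 2, 3 and 4 the Tapbpl difference was -0.70, 0.11 and -0.15. In MDPs the changes were 0.28, -0.13 and 0.01 for Erap1, Tapbp and Tapbpl.

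B2m differed little with tumor in CDPs. Its samples had 3.76, 3.46, 3.34 and 3.56 without and 3.53, 3.69, 3.52 and 3.53 with tumor, a difference of 0.04 (95% interval -0.34 to 0.42) whose sign turned under quantile normalization, to -0.18. In MDPs it averaged 3.56 ± 0.17 without and 3.36 ± 0.38 with tumor. The lowest tumor-bearing MDP samples, 3.14 and 3.0, were again those of slide 1.

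The pair of Nlrc5 probes gave different answers in CDPs. By the brighter probe, CDPs of tumor-free mice had -0.76, -0.14, -0.44 and 0.12 and CDPs of tumor-bearing mice -0.21, -0.06, 0.05 and -0.75, a difference of 0.06. By the dimmer probe they had -2.14, -2.42, -2.41 and -2.23 and -3.08, -2.84, -3.16 and -2.78. On that probe all 4 tumor-bearing samples were below all 4 tumor-free samples, with a difference of -0.66 (SE 0.27, p 0.0285 before and 0.28 after adjustment). Neither probe passed the threshold. In MDPs the changes were 0.27 and 0.26. The part of transcript form in their difference was not tested.

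Between the progenitor stages, Tap2 and Erap1 were lower in CDPs than in MDPs. Averaged over both tumor states, Tap2 was 1.81-fold lower (-0.86 log2 units, SE 0.19, adjusted p 0.00648) and Erap1 2.02-fold lower (-1.01, SE 0.27, adjusted p 0.0193). These were 2 of 10 genes called, beside 11.7% of all probes, and 6.13% in the lower direction, and 5 of 10 had p under 0.05, beside 29.7%. Within tumor-free mice 0 of 10 were called beside 6.07% of all probes, and within tumor-bearing mice 1 of 10, Tap2, beside 7.24% (3.71% lower). Unadjusted p was under 0.05 for 2 of 10 genes (Tap2 and Tapbp) in tumor-free mice, beside 17.1%, and for 3 of 10 (Erap1, Tap2 and Tapbpl) in tumor-bearing mice, beside 27.8%. The median difference of the 10 genes was -0.09 without tumor and -0.23 with tumor, beside 0.02 and 0.19 over all tested probes.

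For Tap2, tumor-free MDPs had -1.4, -0.68, -1.06 and -0.88 against -1.82, -1.73, -1.87 and -0.93 in CDPs. The CDP sample at -0.93 lay within the MDP range and the others below it. The difference of -0.58 (SE 0.27) had an adjusted p of 0.289, and 0.0146 with slide as a block, at a fold change of 1.49, just under the minimum. In tumor-bearing mice each CDP sample (-1.99, -2.38, -2.09 and -2.13) was below each MDP sample (-0.50, -1.61, -0.64 and -1.28), with a difference of -1.14 (SE 0.27, 2.20-fold, adjusted p 0.0196). Pairs on the same slide gave -0.25, -0.47, -0.93 and -0.67 on slides 1 to 4 without tumor and -0.47 and -0.85 on slides 2 and 3 with tumor, so the CDP array was lower in 6 of 6.

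For Erap1, tumor-free MDPs had -2.10, -1.21, -2.36 and -2.20 and CDPs -2.90, -3.41, -3.16 and -1.63. Again the CDP array of slide 1, at -1.63, lay within the MDP range, and the difference of -0.81 (SE 0.38) was not called (adjusted p 0.303). With slide as a block the same difference had an SE of 0.14 and an adjusted p of 0.00324, and was called. In tumor-bearing mice, MDPs had -1.29, -2.23, -1.13 and -2.12 and CDPs -2.92, -3.17, -2.53 and -3.02. These did not overlap, and the difference of -1.22 had an adjusted p of 0.0687 and was -0.53 with slide as a block. On single slides the Erap1 difference was -0.42, -1.06, -0.70 and -1.05 without tumor and -0.31 and -0.90 with tumor, lower in CDPs in 6 of 6.

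**Figure D3:**
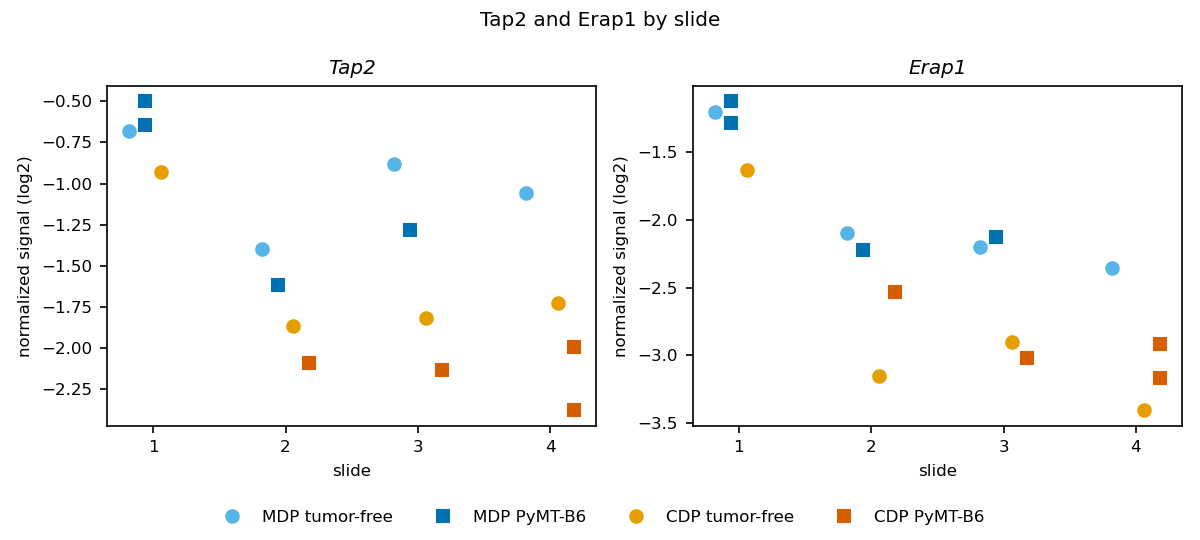
Normalized signal (log2) of Tap2 and Erap1 on each array, placed by slide and marked by group. On every slide the CDP arrays lie below the MDP arrays of the same slide, and the 4 arrays of slide 1 lie high for both genes.

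How firmly the Tap2 and Erap1 differences held depended on slide 1. The averaged differences were called in 16 of 16 fits that left out 1 array. With slide as a block they were -0.68 for Tap2 (adjusted p 0.000819) and -0.67 for Erap1 (adjusted p 0.00116), beside 11.8% of all probes called in that fit. Of all probes, the block fit called 10.7% in tumor-free mice, with Erap1 among the 10 genes, and 6.28% in tumor-bearing mice, with Tap2. Without slide 1 the averaged differences were -0.69 (adjusted p 0.0048) and -0.84 (adjusted p 0.00313). Within tumor states the calls moved. Without slide 1, Tap2 at -0.69 and Erap1 at -0.94 were both called in tumor-free mice (adjusted p 0.0392 and 0.0174), and Tap2 at -0.70 was no longer called in tumor-bearing mice (adjusted p 0.0599). The Tap2 call in tumor-bearing mice was also lost without MDP_PyMT replicate 2, MDP_PyMT replicate 4 or CDP_PyMT replicate 3, with adjusted p up to 0.0673.

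Tapbp had the opposite sign to Tap2 and Erap1 and was not called. In tumor-free mice, CDPs had 3.11, 2.78, 2.93 and 3.18 and MDPs 2.56, 2.75, 2.38 and 2.43, with every CDP sample above every MDP sample. The difference of 0.47 (SE 0.16) had an adjusted p of 0.115, and 0.0207 with slide as a block, but its fold change of 1.38 was under the minimum. In tumor-bearing mice it was 0.19 (adjusted p 0.394), and the groups overlapped. Tapbpl differed between CDPs and MDPs by -0.54 in tumor-bearing mice, without overlap (adjusted p 0.0879), and by -0.20 in tumor-free mice. In all, groups did not overlap for 1 of 10 genes in tumor-free and 3 of 10 in tumor-bearing mice, beside 13.3% and 14% of all probes (6.58% higher in CDPs in tumor-free and 7.01% lower in tumor-bearing mice).

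The remaining genes did not pass the test between stages. The immunoproteasome subunits differed by -0.09, -0.08 and -0.03 for Psmb8, Psmb9 and Psmb10 in tumor-free mice, and by 0.02, 0.15 and 0.36 with tumor. The 95% intervals in tumor-free mice were -0.45 to 0.27, -0.41 to 0.24 and -0.51 to 0.44. Tap1 differed by 0.30 without tumor and -0.51 with tumor (adjusted p 0.732 and 0.204). B2m differed by -0.03 and 0.21, and Nlrc5, by its brighter probe, by -0.29 and -0.49 (adjusted p 0.705 and 0.189). The dimmer Nlrc5 probe differed by 0.76 in tumor-free mice (adjusted p 0.132), so the pair had opposite signs there.

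**Figure D4:**
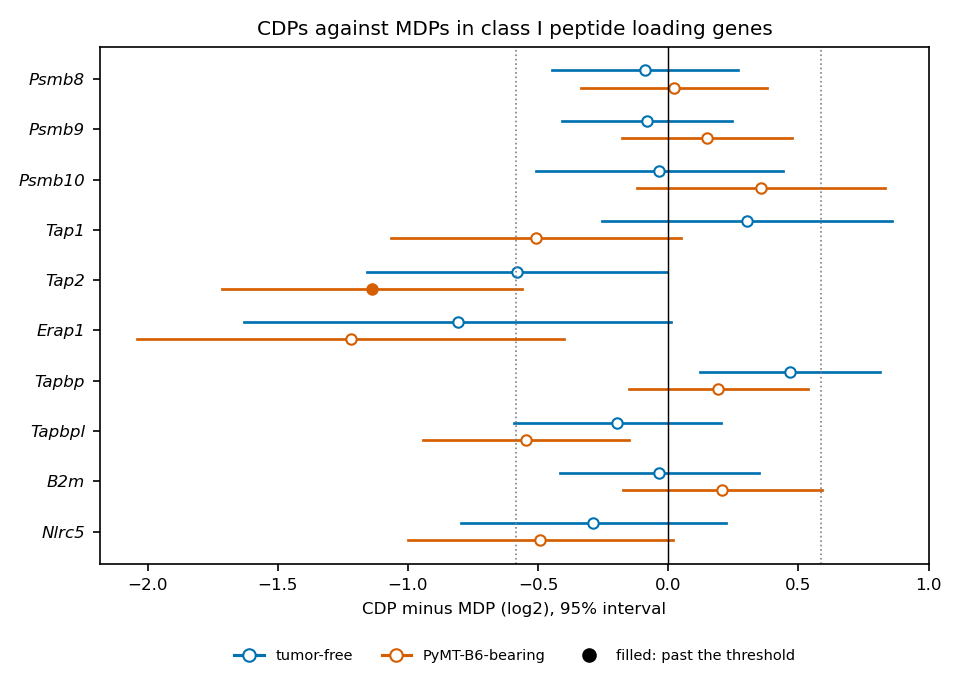
Difference between CDPs and MDPs (CDP minus MDP, log2) of the 10 genes in tumor-free and PyMT-B6-bearing mice with 95% intervals; filled points passed the threshold and dotted lines mark a fold change of 1.5. Tap2 in tumor-bearing mice, at -1.14, is the filled point, and the Erap1 intervals are the widest.

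Across the 16 arrays the genes did not move as 1 block. The signals of Tap2 and Erap1 correlated with r = 0.88, and 0.75 once slide means were removed, and those of Psmb8 and Psmb10 with 0.81 and 0.70, while Psmb10 and Tap2 gave -0.78 and -0.38. These are descriptions over 16 arrays of 4 groups that share slides. The genes most like the members' mean profile over the 16 arrays, of 20136 ranked, were Tmed4 (r = 0.93), Ivd (0.93), Gabarapl1 (0.93), Mbtd1 (0.92) and the class I-like gene Cd1d1 (0.92).

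The rest of the pathway was read from a list of 22 tested genes: constitutive proteasome subunits, chaperones, cytosolic peptidases and translocon parts. With tumor 0 of 22 were called in CDPs or in MDPs. In CDPs 19 of 22 changes were positive with a median of 0.28, and 14 of 22 with a median of 0.07 under quantile normalization. Between stages 2 of 22 were called in each tumor state, beside 6.07% of all probes without and 7.24% with tumor; when only the compared groups were fitted, neither was called with tumor (adjusted p 0.0558 for Calr and 0.0775 for Thop1). Calr, calreticulin, the chaperone that holds empty class I molecules in the loading complex, was lower in CDPs, with a difference of -1.03 (SE 0.13, adjusted p 0.000426) without tumor and -0.74 (SE 0.13, adjusted p 0.00412) with tumor. Thop1, a cytosolic peptidase that destroys class I peptides, was lower in CDPs too, with differences of -1.27 (SE 0.21, adjusted p 0.00245) and -0.96 (SE 0.21, adjusted p 0.0145). Thop1 also rose with tumor averaged over both stages, by 0.64 (adjusted p 0.031, beside 2.76% of all probes called). That call held in 7 of 16 fits without 1 array and was lost without slide 1 (0.55, adjusted p 0.0912) and with normexp background correction (0.56, a fold change under the minimum).

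Of 21 tested class I heavy chains and related molecules, 1 was called with tumor in CDPs, beside 1.79% of all probes. H2-Q5 averaged 0.04 ± 0.26 (SD, n = 4) in CDPs without tumor and -0.98 ± 0.14 in CDPs with tumor, and fell by 1.02 on the log2 scale (SE 0.16, adjusted p 0.00586), a call that held in 16 of 16 fits without 1 array and without slide 1, and was lost when only the CDP groups were fitted (adjusted p 0.0722). Over the list, 8 changes were positive and 13 negative in CDPs, and 3 and 18 under quantile normalization, where the median went from -0.15 to -0.30. In MDPs H2-Q5 averaged 0.39 ± 0.18 and -0.10 ± 0.14, a difference of -0.49 (adjusted p 0.332). H2-Q genes are near-identical copies that 1 probe may not separate, so which gene this signal came from is uncertain. The classical heavy chains H2-K1 and H2-D1 differed by 0.15 and 0.10 with tumor in CDPs (adjusted p 0.815 and 0.908) and by -0.11 and 0.12 in MDPs, and both CDP differences turned negative under quantile normalization. Between stages, averaged over tumor states, 1 of 21 was called higher and 3 lower, beside 5.59% and 6.13% of all probes. Fcgrt, the neonatal Fc receptor that also binds B2m, was higher in CDPs by 1.88 (adjusted p 9.76e-05). Cd1d1, which presents lipids to NKT cells, was lower in CDPs at -0.81 (adjusted p 0.0214), as were H2-Q5 at -0.61 (adjusted p 0.00162) and Mr1, which presents vitamin metabolites, at -1.57 (adjusted p 0.0262), with Mr1 well above background on 2 of 4 arrays of tumor-bearing CDPs. With slide as a block none of these 3 was called (Cd1d1 at -0.55 and H2-Q5 at -0.56 were under the fold minimum, and Mr1 had an adjusted p of 0.06). H2-Q5 was also not called with normexp background correction. The Mr1 difference was -0.83 with normexp, was not called without slide 1 (adjusted p 0.117), and held its call in 11 of 16 fits without 1 array.

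Regulators of class I genes had negative tumor differences in CDPs for 21 of 26 tested genes. The list mixes interferon receptors, JAK, STAT, IRF and NF-kappaB factors with RFX and NF-Y genes, Ciita, Creb1 and Socs1. The median was -0.38 and 0 of 26 were called, beside 1.79% of all probes. The counts of signs were also 21 and 5 under quantile normalization, where 1 gene was called lower. With median scaling 1 was called lower, and with normexp background correction 2. Stat2, a partner of IRF9 in interferon signaling, differed by -1.13 (adjusted p 0.061) and Nfkb1, an NF-kappaB subunit, by -0.73 (adjusted p 0.0564), each without overlap between groups. In MDPs 16 of 26 were negative, with a median of -0.06, and 12 of 26 with a median of 0.01 under quantile normalization. Averaged over both stages, Irf7, an interferon-induced IRF, fell by 1.80 (adjusted p 0.034), with Irf7 well above background on 2 of 4 arrays of tumor-bearing MDPs. It was not called without slide 1 (adjusted p 0.0676) or under quantile normalization (adjusted p 0.0566), and the call held in 4 of 16 fits without 1 array. CDPs exceeded MDPs, averaged over tumor states, in Irf7 by 3.23, Jak2 by 0.91 and Nfkb1 by 0.64 (adjusted p 0.000168, 0.000123 and 0.00308). Between stages on average, 4 of 26 regulators were called higher and 0 lower, beside 11.7% of all probes (5.59% higher). The Irf7 difference was 1.99 with normexp background correction. Nfkb1 fell under the fold minimum with slide as a block (0.55) and without slide 1 (0.53). Tap2 and Erap1 had the opposite sign in that comparison.

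**Figure D5:**
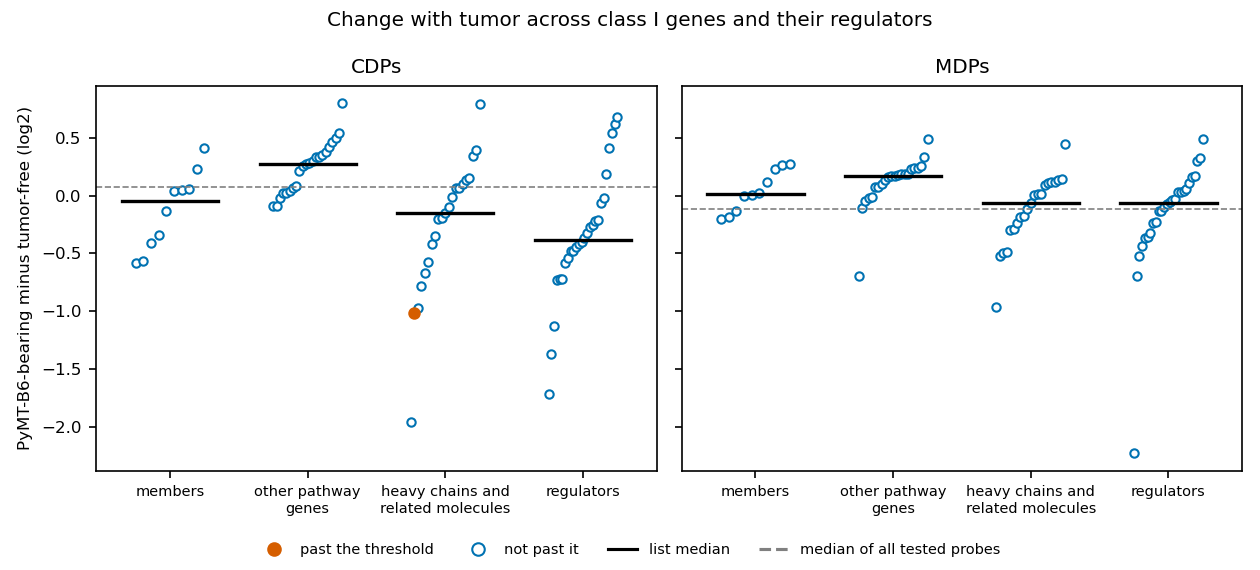
Change with tumor (PyMT-B6-bearing minus tumor-free, log2) of the 10 loading genes, 22 other pathway genes, 21 heavy chains and related molecules and 26 regulators in CDPs and MDPs; each point is a gene, bars are list medians and the dashed line is the median of all tested probes. In CDPs the list medians are -0.05, 0.28, -0.15 and -0.38 (-0.14, 0.07, -0.30 and -0.45 under quantile normalization), and H2-Q5 is the filled point.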

How the data were processed

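RNA of sorted MDPs and CDPs was measured on 16 one-color (Cy5) Agilent arrays. The authors deposited a spot table per array made with Feature Extraction 11.5.1.1, whose processed intensity is background-subtracted and detrended within the array and not scaled between arrays. These deposited files hold mean and local background intensity too, and a 0 or 1 flag for each of several spot qualities. A second deposited file lists log2 values from the authors for 26793 probes; it was found to hold quantile-normalized log2 signal (r of at least 0.99982 with each own array, column medians 10.2 to 10.3) and was used as an alternative. The normalization the authors used for testing is not given in the sources used here; the submitters' processing notes name limma.

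After removing control spots and those flagged as outliers (182 to 289 per array), intensities were put on the log2 scale, centered on each array's 75th percentile and averaged per probe (10 spots for Tap1, 1 for the other members). A probe was tested if 3 or more of the 4 arrays of some group had it well above background, 27433 of 39429, and 0 were saturated. One limma model (version 3.58.1, under R 4.3.3) held the 4 group means over all 16 arrays. Thresholds follow the study's methods. The number of arrays limits the precision: the median SE of a tumor change was 0.306. The members and gene lists were chosen with earlier results of these data known. All members were named, other genes of the lists where called (1 regulator is not reported here), and H2-K1, H2-D1, Psmb5, Psmb6 and Psmb7 in any case. Where several probes of 1 gene were tested, the brightest stands for it. Of the other pathway genes, Psme2 was not matched on the array, nor were H2-L, H2-Q6, H2-Q9 and H2-T22, and H2-M10.1 did not pass the filter. Sample numbers 2 to 5 are not stated to mark shared experiments, so p-values measure the spread between samples. Same-numbered samples of different groups had correlations of deviations between -0.634 and 0.481, so numbers were not treated as pairs. The fit was tested on simulated data. Alternatives were background correction, scaling, probe filter, the value table, slide or replicate number as a block, the groups compared alone, the mean of a gene's probes, the thresholds and leaving out each array; leaving out slide 1 was added after seeing the data.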

Additional observations from a re-analysis of the deposited data

Results flagged for a closer look

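Of 44 groups of 4 arrays (11 probes in 4 groups), 3 held an array whose gap to the nearest other array was, as a share of the group's range, above the 95% critical value of Dixon's ratio. Chance flags about 1 in 20 such groups. The Tap2 array of CDP_Normal replicate 5, on slide 1, was highest at -0.93, with the others between -1.87 and -1.73. B2m in CDP_PyMT was highest in replicate 3, at 3.69, with the others between 3.52 and 3.53. B2m in MDP_Normal was lowest in replicate 5, at 3.31, with the others between 3.62 and 3.68.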

How the results depend on the processing

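The count of loading genes called was the same under every alternative with tumor in CDPs, in MDPs, averaged and in the difference of the changes (0 of 10), and between stages averaged over tumor states (2). Between stages in tumor-free mice the count of 0 became 1 (Erap1) with slide as a block and 2 without slide 1, and ranged from 0 to 1 when 1 array was left out. In tumor-bearing mice the count of 1 became 0 when only the compared groups were fitted, 0 without slide 1 and 2 with an FDR under 0.1, and ranged from 0 to 2 when 1 array was left out (2 without MDP_PyMT replicate 5 or CDP_Normal replicate 5). With the replicate number as a block it was 1 in tumor-bearing and 0 in tumor-free mice, and no count of loading genes changed. No call on a loading gene turned direction, so the sign changes listed next are of differences that were not called. The cause of these shifts was not tested. With 4 arrays a group, differences inside the intervals given could not be resolved.

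Under quantile normalization the sign turned for B2m (-0.18), Psmb8 (-0.013), Psmb9 (-0.11), H2-K1 (-0.13) and H2-D1 (-0.17) with tumor in CDPs, Psmb10 (-0.072) and Tap2 (0.093) with tumor in MDPs, Psmb8 (-0.083) in the difference of the tumor changes, and Psmb8 (-0.19) between stages in tumor-bearing mice. With the deposited value table it turned for B2m (-0.18), Psmb8 (-0.012), Psmb9 (-0.11), H2-K1 (-0.13) and H2-D1 (-0.17) with tumor in CDPs, Psmb10 (-0.075) and Tap2 (0.091) with tumor in MDPs, Psmb8 (-0.079) in the difference of the tumor changes, and Psmb8 (-0.19) between stages in tumor-bearing mice. With normexp background correction it turned for Psmb9 (-0.016) with tumor in CDPs, Tap2 (0.023) with tumor in MDPs, Erap1 (-0.0052) with tumor averaged over stages, and Psmb9 (0.012) and Psmb10 (0.053) between stages in tumor-free mice. Scaling each array to its median over commonly detected probes turned Tap2 (0.021) with tumor in MDPs. With slide as a block the sign turned for B2m (-0.011), Psmb9 (-0.031), Erap1 (0.21) and H2-D1 (-0.061) with tumor in CDPs, Tapbpl (-0.055), Erap1 (-0.072) and H2-K1 (0.024) with tumor in MDPs, Erap1 (0.28) in the difference of the tumor changes, Psmb8 (-0.088) and Psmb9 (-0.011) between stages in tumor-bearing mice, and Tap1 (0.066) and Psmb9 (-0.047) between stages on average. The mean of its probes turned Nlrc5 (-0.30) with tumor in CDPs, Nlrc5 (-0.021) with tumor averaged over stages, and Nlrc5 (0.24) between stages in tumor-free mice. Without slide 1 the sign turned for Psmb9 (-0.023) and Erap1 (0.25) with tumor in CDPs, B2m (0.11) and H2-K1 (0.054) with tumor in MDPs, B2m (0.080) with tumor averaged over stages, B2m (-0.055), Psmb8 (-0.15), Psmb10 (-0.034), Nlrc5 (0.0087) and Erap1 (0.20) in the difference of the tumor changes, B2m (-0.082), Psmb8 (-0.21), Psmb9 (-0.035) and Psmb10 (-0.088) between stages in tumor-bearing mice, and B2m (-0.055), Psmb9 (-0.068) and Psmb10 (-0.071) between stages on average.

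Leaving out 1 array turned the sign of some differences, whose ranges over 16 fits were B2m (-0.023 to 0.12), Erap1 (-0.35 to 0.25), H2-D1 (-0.0031 to 0.25), Nlrc5 (-0.090 to 0.23) and Psmb9 (-0.023 to 0.10) with tumor in CDPs, H2-D1 (-0.073 to 0.32), H2-K1 (-0.23 to 0.071), Psmb10 (-0.13 to 0.17), Tap2 (-0.18 to 0.20) and Tapbpl (-0.088 to 0.13) with tumor in MDPs, Erap1 (-0.036 to 0.26) with tumor averaged over stages, B2m (-0.12 to 0.029), Psmb10 (-0.15 to 0.057) and Psmb8 (-0.16 to 0.0099) between stages in tumor-free mice, Psmb8 (-0.083 to 0.11) between stages in tumor-bearing mice, and Psmb8 (-0.086 to 0.016) and Psmb9 (-0.012 to 0.077) between stages on average.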
